A study of Mus musculus with 22 samples.

Results

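The distribution of γH2AX in testes of mice carrying a single Robertsonian translocation was set against that in a normal C57BL/6J testis. Of the 22 libraries of the series, 10 were used: 6 γH2AX libraries of carriers, 1 γH2AX library of B6 and 3 inputs. The members are defined by their labels, but they were chosen with earlier results of these data known. The comparison asks, after the title of the series, where an autosomal fusion changes the distribution of this mark in the germ line. All come from whole testis by ChIP-seq, the sequencing of DNA immunoprecipitated with a chromatin mark, and the deposited values are read counts in 54520 windows of 50 kb along the 21 chromosomes of mm10.

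The carriers are F1 mice of 2 crosses, with the mother taken as the strain written first. For 1Rb_M (3 libraries) the mother is CBy.RBF-Rb(8.12)5Bnr/J and the father B6.SPRET7MOLF12. For 1Rb_P (3 libraries) the mother is C57BL/6J and the father CBy.RBF-Rb(8.12)5Bnr/J. Both are heterozygous for a fusion of chromosomes 8 and 12 and were taken at 4 weeks of age. The B6 library (C57BL/6J, no translocation) is also of 4 weeks. All 7 were made with an antibody to H2A.X phosphorylated at Ser139, clone JBW301, whose supplier is written Millipore for the carriers and Upstate for B6. The carriers thus differ from B6 in parental strain and in the supplier label as well as in the translocation, and these cannot be told apart. Whether replicates are separate animals is not given in the labels, which only number them. The inputs are 1 each of 1Rb_M and B6 at 4 weeks and 1 of Cg, the B6.SPRET7MOLF12 control, at 6 weeks.

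A Robertsonian translocation joins 2 acrocentric chromosomes at their centromeres. In a heterozygote the fused chromosome pairs at meiosis with its 2 separate partners as a trivalent, and the partners' pericentromeric ends are often the last to synapse. In spermatocytes H2AX is phosphorylated at double-strand breaks by ATM, and later by ATR on chromosome axes that stay unsynapsed, from where MDC1 spreads the mark into the chromatin loops. The X and Y are coated in this way in every pachytene spermatocyte, forming the silenced sex body, and unsynapsed autosomal segments can acquire the same mark. Whole testis mixes all stages of germ cells with somatic cells, so the level at a locus cannot tell more marked cells from more mark per cell.

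The 6 carriers were sequenced to 45527545 to 52775888 counts each and B6 to 21535147; the inputs held 11876426 to 51651953. The median window had 635 to 779 counts in carrier libraries, against 285 in B6, a counting error of 3.58 to 3.97% and of 5.92%. Among the 6 pairs of replicates of a cross none were copies: the chi-square per degree of freedom was at least 1.57. 1Rb_M replicates 1 and 2 stand apart from the other 4 carriers. They had 12.3% of their counts on X, against 17.7 to 18.9% in the other 4, and their chi-square per degree of freedom was 2.49 against each other but 24.5 and 28.7 against 1Rb_M replicate 3. Results that move with them are therefore given also without both. In addition, the title and the strain of the 1Rb_M input disagree, the strain being that of 1Rb_P. From 31 to 35 Mb of X it stood 0.19 (log2) above its own X-wide level over the pooled inputs, against -0.21 in the B6 input. The 1Rb_M libraries likewise stood at 0.25, 0.22 and 0.28 there, the 1Rb_P libraries at -0.15, -0.15 and -0.18, and B6 at -0.09, so the input goes with its title rather than with its strain label.

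Each level below is the log2 ratio of a library's counts to those of the 3 inputs pooled, relative to the same ratio over the 17 autosomes other than 8 and 12. A level of 0 is the average of those autosomes. Differences are the mean of the 6 carriers minus B6. Since B6 has 1 library, its place is described without a test: an exact permutation of 1 against 6 could not give a one-sided p below 0.143. Its interval covers counting error only.

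At the centromeric ends of 8 and 12, γH2AX stood above the autosomal average in every carrier library. In B6 the sum of both ends stood at that average, with -0.11 on chromosome 8 and 0.11 on chromosome 12. Over their first 10 Mb of assembled sequence (3 to 13 Mb on mm10) the levels were 0.70, 0.60 and 1.21 in the 1Rb_M libraries and 1.01, 1.00 and 0.96 in the 1Rb_P libraries, against 0.00 in B6 (95% exact Poisson interval -0.00 to 0.01). All 6 carriers lay above B6, the lowest being 1Rb_M replicate 2 and the highest 1Rb_M replicate 3. The carrier mean of 0.91 ± 0.22 (SD, n = 6) was 1.88-fold the B6 level. Without 1Rb_M replicates 1 and 2 the difference was 1.04.

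Both partners took part. On chromosome 8 the levels were 0.61, 0.54 and 1.08 in 1Rb_M and 0.89, 0.88 and 0.84 in 1Rb_P, against -0.11 in B6. On chromosome 12 they were 0.79, 0.66 and 1.33 in 1Rb_M and 1.11, 1.12 and 1.08 in 1Rb_P, against 0.11 in B6. The gain was thus of one size, 0.92 on 8 and 0.91 on 12. Chromosome 12 stood above 8 by 0.11 to 0.25 in the carriers and by 0.22 in B6, so this order was already present without the fusion.

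The centromeric 10 Mb of the other 17 autosomes did not share this. Together they stood at 0.02, 0.02 and -0.00 in 1Rb_M and -0.03, -0.02 and -0.02 in 1Rb_P, against -0.01 in B6. Taken singly, their differences ran from -0.07 to 0.05. All 6 carriers lay above B6 on 2 of the 17 and below it on 1. Within each library, the level of 8 and 12 less that of the other 17 was 0.68, 0.58, 1.21, 1.03, 1.03 and 0.99 in the carriers and 0.02 in B6.

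**Figure D1:**
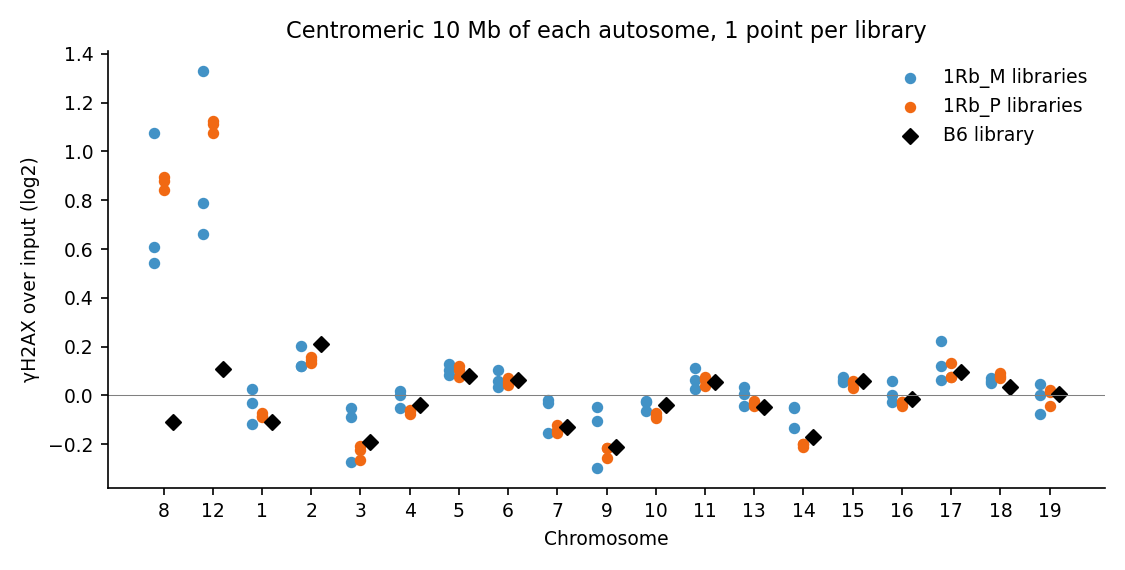
γH2AX over pooled input (log2, vertical axis) in the centromeric 10 Mb of each autosome (horizontal axis), 1 point per library, with 1Rb_M and 1Rb_P libraries left of the B6 library at each chromosome. On 8 and 12 all 6 carriers stand well above B6, by means of 0.92 and 0.91; on each of the other 17 the carrier mean is within 0.07 of B6.

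The gain was highest from 3 to 8 Mb and declined along both arms, though on chromosome 8 not evenly. On chromosome 8 the carriers exceeded B6 by a mean of 1.15 from 3 to 8 Mb, 0.66 from 8 to 13 Mb, 0.36 from 13 to 18 Mb, 0.42 from 18 to 23 Mb, 0.24 from 23 to 33 Mb and 0.13 from 33 to 43 Mb. On chromosome 12 the differences in the same bands were 1.08, 0.68, 0.42, 0.14, 0.14 and 0.11. The 17 other autosomes stayed between -0.01 and 0.01 in every band. B6 levels in the 4 bands up to 23 Mb were -0.11, -0.10, -0.04 and -0.28 on chromosome 8. On chromosome 12 they were 0.20, 0.01, -0.01 and -0.29, so the B6 level itself also declined over these bands there. On chromosome 8 B6 was lowest from 18 to 23 Mb. The carrier mean in that band was 0.14, against 0.32 from 13 to 18 Mb.

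In bins of 1 Mb, all 6 carriers lay above B6 in 688 of 2667 bins genome-wide, a background of 25.8%, and all 6 lay below it in 654, a background of 24.5%. From 3 to 23 Mb of 8 and 12, the carriers were all above B6 in 39 of 40 bins. Of these, 37 differed by at least 0.2. Over all bins, which include this stretch and X and Y, the shares were 2.32% above and 12.2% below. On the other 17 autosomes they were 0.600% and 3.32%. On chromosome 8 the bins with all carriers above B6 ran without a gap for 31 Mb from the start of the sequence, and on chromosome 12 for 19 Mb. The longest such run anywhere on the other 17 autosomes was 15 Mb, inside chromosome 1. The run on chromosome 12 shortened to 14, 14.5 and 15 Mb under alternative settings, for which runs on the other autosomes were not measured.

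The extent on chromosome 8 rests on small differences near 21 Mb. In that bin, where the defensin gene cluster lies, the carriers stood at -0.10, -0.05, -0.04, -0.13, -0.16 and -0.13 and B6 at -0.17, a difference of only 0.07. Under 3 alternative settings the run ended before this bin, after 18 Mb, under another it ended after 17 Mb, and with 1Rb_P alone it reached 50 Mb. The largest single bin of chromosome 8 was at 6 Mb, with carriers at 0.89, 0.92, 1.36, 1.28, 1.25 and 1.25 and B6 at -0.12. On chromosome 12 the largest was the first, at 3 Mb, with carriers at 1.15, 0.94, 1.799, 1.52, 1.52 and 1.43 and B6 at 0.23. The exception among the 40 was at 22 Mb of chromosome 12, where all 6 carriers lay between -0.41 and -0.18, below B6 at -0.16.

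**Figure D2:**
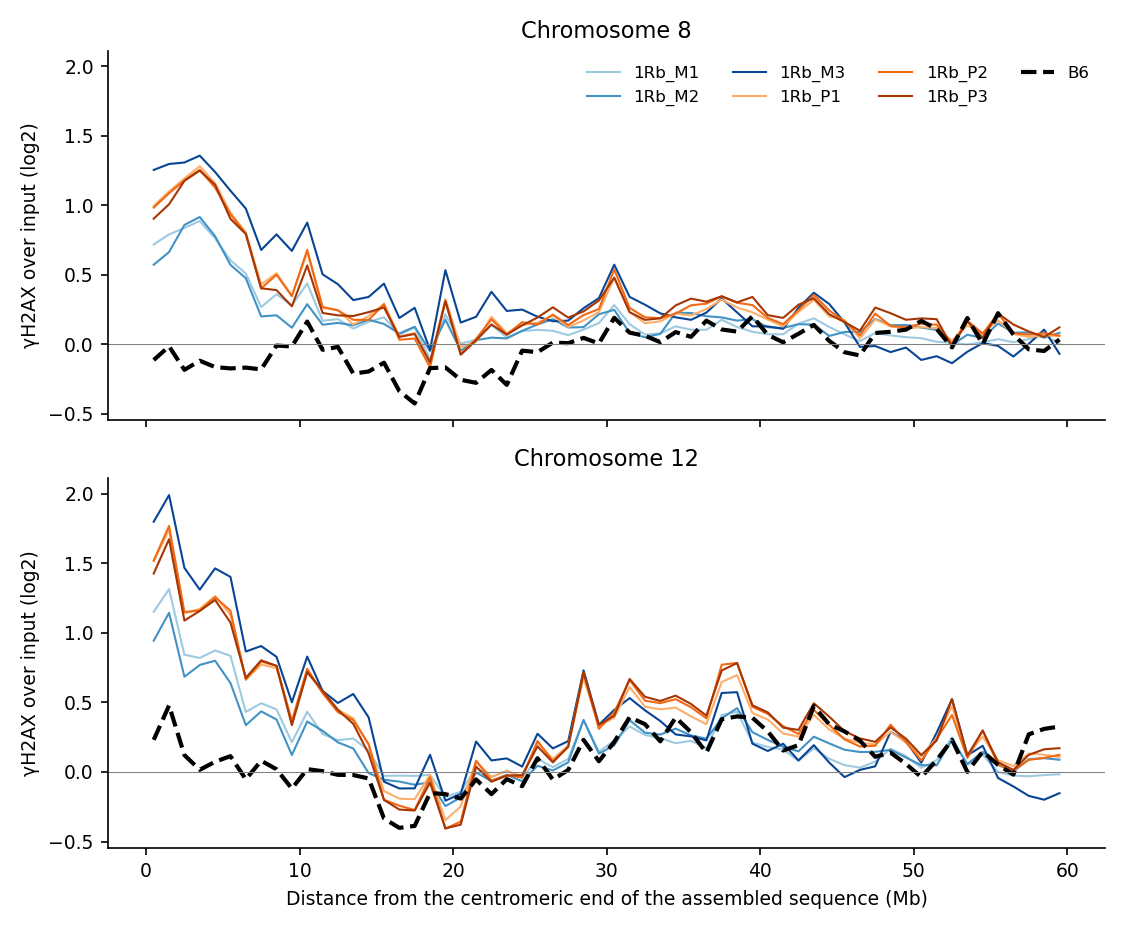
γH2AX over pooled input (log2, vertical axis) in 1 Mb bins along chromosomes 8 and 12, by distance from the centromeric end of the assembled sequence in Mb (horizontal axis), with 1 line for each of the 6 carrier libraries and a dashed line for B6. The carriers start between 0.57 and 1.799 above the autosomal average and fall towards B6 within about 20 Mb. Summed over the first 10 Mb, 1Rb_M replicate 3 is highest and 1Rb_M replicates 1 and 2 lowest among the carriers. Further along this order changes. B6 starts closer to the average, at 0.23 on chromosome 12.

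The marked stretch holds genes of many unrelated functions. In single 50 kb windows, 0.5 being added to each count, all carriers lay above B6 in 365 of 397 usable windows of the first 20 Mb of chromosome 8, which span 186 protein-coding genes, and in 330 of 399 on chromosome 12, with 98 genes. The background outside this stretch was 24.4% of autosomal windows above B6 and 19.9% below. A list of genes known on each end was read at the window of the gene's lower coordinate, whatever its strand. Such a window can hold only an edge of the gene, beside neighbouring sequence. Of 41 such genes on chromosome 8, 36 had all carriers above B6, with differences of 0.01 to 1.502 and a median of 0.56. Of 43 on chromosome 12, 40 did, with differences of 0.14 to 1.28 and a median of 0.84. The median of all windows of the stretch was 0.54 on chromosome 8 and 0.52 on chromosome 12.

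From the centromeric end of chromosome 8, Insr, the insulin receptor (3150922 to 3279649 on mm10), had levels of 0.76, 0.66, 1.34, 0.99, 1.05 and 0.92 in the carriers and -0.24 in B6, a difference of 1.19. Ccl25, a chemokine of thymus and gut, stood at 0.99, 0.84, 1.64, 1.35, 1.29 and 1.24 in the carriers and -0.03 in B6. Both lie in the first 2 Mb of sequence, and B6 was far outside the carriers at each. Efnb2, the ephrin-B2 ligand, and its neighbour Arglu1 differed by 1.00 and 0.98. Further along, Irs2, an insulin receptor substrate, differed by 0.30. The window of Csmd1, a very large gene of a complement-regulatory membrane protein, differed by 0.44. That window (15850001 to 15900000) holds only the edge of the gene, which runs from 15892538 to 17535385.

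Levels in B6 varied from gene to gene along this arm, and at some genes they reached those of the carriers. F7, the gene of coagulation factor VII, stood at 0.44, 0.20, 0.92, 0.57, 0.60 and 0.41 in the carriers and 0.21 in B6, which was above 1Rb_M replicate 2. Myom2, of the sarcomeric M band, stood at 0.29 to 0.60 in the carriers and 0.42 in B6, with no separation. Agpat5, a lipid acyltransferase, and Defb1, a beta-defensin, differed by 0.42 and 0.44. At the far end, Kat6a, a histone acetyltransferase, still differed by 0.61, with 0.41 to 0.72 in the carriers and -0.07 in B6.

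On chromosome 12, Rab10, a GTPase of vesicle transport, stood at 1.01, 0.82, 1.60, 1.40, 1.38 and 1.24 in the carriers and 0.41 in B6. Klhl29, a kelch-domain gene, differed by 0.80. Apob, the apolipoprotein of low-density lipoprotein (7977629 to 8016839), stood at 0.94, 0.83, 1.51, 1.37, 1.40 and 1.28 in the carriers and 0.28 in B6. Wdr35, a component of intraflagellar transport, differed by 1.07. These genes lie in the first 6 Mb of sequence, where every listed gene had all carriers above B6.

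Further along, the genes named by position differed less. Kcns3, a potassium channel subunit, differed by 0.46, Mycn, a MYC-family transcription factor, by 0.54 and Trib2, a pseudokinase, by 0.30. Hpcal1, a neuronal calcium sensor, stood at -0.21 to 0.19 in the carriers and -0.18 in B6, within their range. The decline was not uniform. Smc6, of the SMC5/6 complex of genome stability, and its neighbour Gen1, a Holliday junction resolvase, lie beyond Wdr35 and differed by 1.08 and 0.95; both were picked out of the list after their values were seen.

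The carriers' gain was present with and without genes. From 3 to 8 Mb of both chromosomes, all carriers lay above B6 in 127 of 127 windows with no gene (median difference 1.10), 63 of 63 with 1 to 2 genes (1.13) and 9 of 9 with 3 or more (0.99). From 8 to 13 Mb the counts were 113 of 119 without a gene and 78 of 80 with 1 to 2 genes. From 13 to 23 Mb they were 129 of 173 without a gene, 161 of 206 with 1 to 2 and 14 of 18 with 3 or more. On chromosome 12 from 3 to 8 Mb, gene-holding windows stood higher than gene-free ones in both groups: at 1 to 2 genes the median level was 1.51 for the carrier mean and 0.35 in B6, and without genes 1.07 for the carrier mean and 0.01 in B6.

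The rest of 8 and 12, beyond 13 Mb, was also slightly higher in the carriers. The levels were 0.05, 0.04, 0.12, 0.10, 0.10 and 0.10 in the carriers and -0.01 in B6, a difference of 0.09. All 6 carriers were above B6. The difference was 0.12 on chromosome 8 and 0.07 on chromosome 12, beside -0.04 to 0.10 on the 17 other autosomes, of which chromosome 19 was the highest. Over chromosome 8 beyond 34 Mb, 54 of 96 bins had all carriers above B6, and none of them differed by 0.2. The distal 5 Mb differed by 0.08 on chromosome 8 and 0.02 on chromosome 12. From 33 to 43 Mb of chromosome 12 the crosses parted, with 0.28, 0.31 and 0.40 in 1Rb_M and 0.50, 0.56 and 0.56 in 1Rb_P, against 0.32 in B6.

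On the 17 other autosomes the carriers and B6 differed often but little. All carriers lay above B6 in 553 of 2166 bins (25.5%) and below it in 389 (18.0%). With a difference of at least 0.2 these became 13 bins (0.600%) and 72 (3.32%). The bins with carriers above had a median of 6 genes and a median difference of 0.09. Those with carriers below had a median of 1 gene and a median difference of -0.13; those where B6 lay within the carriers had a median of 7 genes. The share of bins with all carriers above B6 ran from 4.95% on chromosome 15 to 61.0% on chromosome 19, so this count differs between chromosomes without a fusion.

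**Figure D3:**
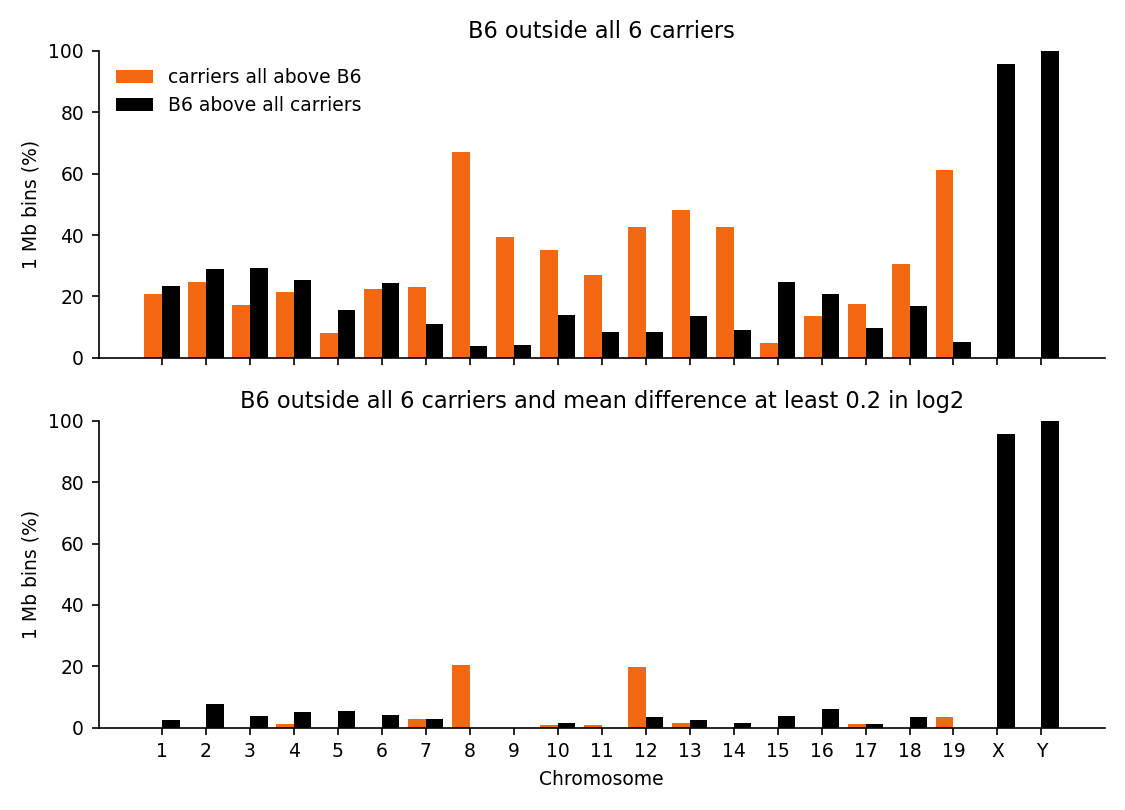
Percent of 1 Mb bins (vertical axis) in which all 6 carriers lay above B6 (orange, left) or below it (black, right), by chromosome (horizontal axis); the upper panel takes any difference and the lower panel a mean difference of at least 0.2 in log2. Once small differences are left out, carriers above B6 are seen mainly on 8 and 12, at 20.5 and 19.7% of bins, and carriers below B6 mainly on X and Y, at 95.8% of bins on X and all 90 bins on Y.

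Gene-dense and gene-free autosomal windows did not separate the groups. Windows with 3 or more genes less windows with none gave 0.01, -0.12 and 0.13 in 1Rb_M and 0.02, 0.01 and -0.07 in 1Rb_P, against -0.03 in B6, inside the carriers' range. How strongly the mark varied between bins did differ between libraries. The SD over 2166 bins was 0.088, 0.116 and 0.163 in 1Rb_M and 0.150, 0.176 and 0.182 in 1Rb_P, against 0.176 in B6. As a description, Pearson's r of each library with B6 over these bins was 0.77, 0.78 and 0.59 in 1Rb_M, and 0.89, 0.87 and 0.88 in 1Rb_P; the points share the pooled input as denominator.

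X and Y were the most enriched chromosomes in all 7 libraries, and both were lower in the carriers than in B6. X stood at 2.17, 2.18 and 2.95 in 1Rb_M and 2.92, 2.84 and 2.84 in 1Rb_P, against 3.13 in B6. Y stood at 2.03, 2.04 and 2.75 in 1Rb_M and 2.75, 2.63 and 2.62 in 1Rb_P, against 3.10 in B6. No carrier reached B6. The mean differences were -0.49 on X and -0.63 on Y, with carrier SDs of 0.37 and 0.34 (n = 6). 1Rb_M replicates 1 and 2 carry much of their size: without both, they were -0.25 and -0.42. In the B6 library both the depth and the supplier label differ from the carriers. With carriers thinned to the B6 depth the differences were again -0.49 and -0.63, but thinning leaves the expected ratio of summed counts unchanged. The part of either was not tested.

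The lower level covered nearly the whole of both chromosomes. All carriers lay below B6 in 160 of 167 bins of X and in 90 of 90 of Y. Along X in steps of 10 Mb up to 170 Mb the differences ran from -0.39 to -0.59. In all 7 remaining bins 1Rb_M replicate 3 was above B6 while the other 5 carriers were below it. Of these, 6 lie at 3, 4 and 31 to 34 Mb, where the 1Rb_M input stood at 0.14 to 0.23 and the B6 input at -0.33 to -0.19 over the pooled inputs.

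The far end of X, beyond 170 Mb, holds the pseudoautosomal region, where X and Y pair and recombine. Its 6 usable windows stood at 1.11, 0.94 and 1.83 in 1Rb_M and 1.71, 1.67 and 1.55 in 1Rb_P, against 2.67 in B6. This end stood below the level of X as a whole by more than 1 in each carrier (-1.28 to -1.06) and by less in B6 (-0.46). The B6 input was itself 0.57 above the 1Rb_M input there, and how much of the difference that makes was not tested.

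B6 was also tilted towards the Y long arm, which carries the ampliconic spermatid gene families. The level beyond 4 Mb of Y less that of the first 4 Mb was 0.10, 0.08 and 0.06 in 1Rb_M and 0.14, 0.11 and 0.14 in 1Rb_P, against 0.32 in B6. The 3 inputs gave 0.00, 0.00 and -0.03. The carriers were thus closer to B6 on the short arm, by -0.42, than on the long arm, by -0.64.

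Genes of the sex chromosomes followed their chromosome. Among the windows of 24 single-copy X genes, all carriers lay below B6 in 52 of 52, with a median difference of -0.50. Over X as a whole this held in 95.8% of the larger 1 Mb bins, while its share of 50 kb windows is not given here. The median difference over all X windows was -0.46, so the lower level is not particular to these genes. On autosomes outside the fused ends the background was 19.9% of windows below. Pgk1, a housekeeping gene of glycolysis, stood at 2.40, 2.31, 3.17, 3.14, 3.01 and 3.01 in the carriers and 3.39 in B6. Uba1, of ubiquitin activation, differed by -0.68. Windows of X multicopy families had all carriers below B6 in 71 of 78 (median -0.54); their near-identical copies share reads, and 3 of these windows are autosomal.

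Of 22 windows of the Y short-arm list, 1 of them autosomal, 13 had all carriers below B6 (median -0.37). So did 5 of 5 of the long-arm list (median -0.65). In the larger 1 Mb bins this held in all 90 bins of Y, while its share of 50 kb windows is not given here. The median difference over all Y windows was -0.64. Kdm5d, a histone demethylase of the short arm, stood at 2.16, 2.06, 2.99, 2.80, 2.68 and 2.65 in the carriers and 2.89 in B6, which 1Rb_M replicate 3 exceeded. Zfy1, a zinc finger gene active in spermatocytes, differed by -0.42. Sly, a multicopy long-arm gene expressed in spermatids, differed by -0.65, and Ssty1 by -0.71; copies of both families cannot be told apart.

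Set beside X in the same library, the fused ends held a steady share. The excess over the autosomes at the centromeric 10 Mb of 8 and 12 was 17.8, 14.7 and 19.5% of the X excess in 1Rb_M and 15.4, 16.3 and 15.5% in 1Rb_P, against 0.04% in B6. 1Rb_M replicates 1 and 2, which stood lowest both on X and on 8 and 12, were at 17.8%, inside the range of the other 4 carriers, and at 14.7%, just below it. The Y excess was 83.9 to 88.4% of the X excess in the carriers and 97.7% in B6.

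**Figure D4:**
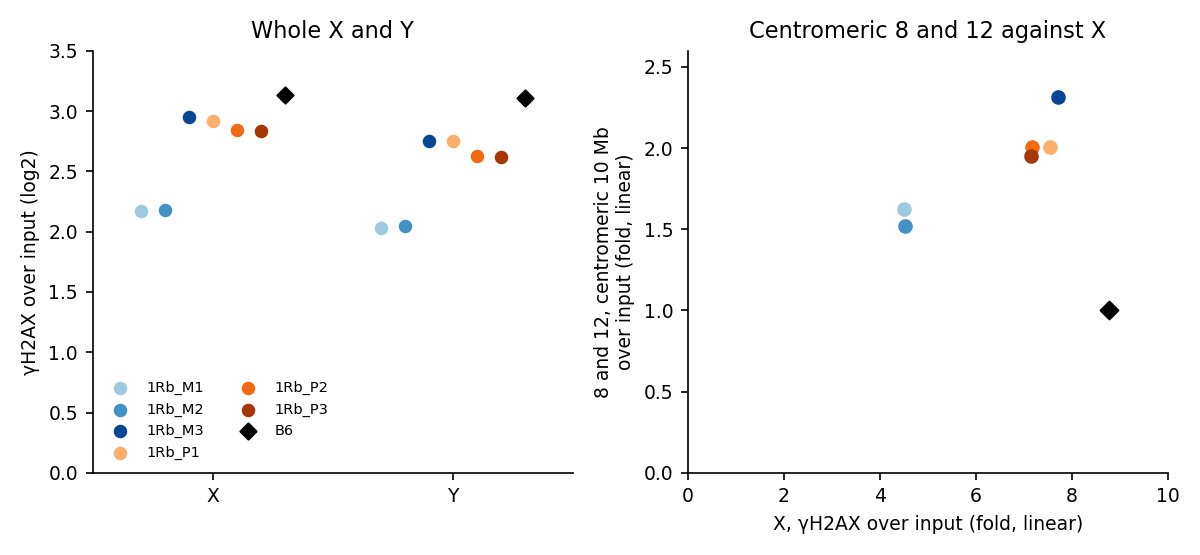
Left, γH2AX over pooled input (log2) on whole X and Y, 1 point per library, carriers left of B6. Right, the centromeric 10 Mb of 8 and 12 (vertical axis) against X (horizontal axis), both as linear fold over input relative to the 17 other autosomes; B6 has the highest X and a fold near 1 on 8 and 12, while the 6 carriers have lower X and 1.52 to 2.31-fold.

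Autosomal genes of the γH2AX pathway and of spermatogenesis showed small differences. Of 28 autosomal windows of pathway genes, all carriers were above B6 in 11 and below in 3, with a median difference of 0.10; the autosomal background was 24.4% above and 19.9% below. Atr, the kinase of unsynapsed axes, stood at -0.15 to 0.10 in the carriers and -0.32 in B6; Chek1, its downstream kinase, at 0.07 to 0.16 in the carriers and -0.22 in B6. At H2ax and at Mdc1, the reader of the mark, B6 lay within the carriers. Of 61 autosomal windows of meiotic prophase genes, 22 had all carriers above and 12 below (median 0.03). Sycp3, of the chromosome axis, differed by 0.35 and Meiob, a recombination factor, by -0.24.

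Lists of cell types and gene families also had small median differences. The autosomal background was again 24.4% of windows above and 19.9% below. In these lists the share above ran from 22.6% in olfactory receptors to 37.1% in spermatogonial genes. The share below ran from 4% in Sertoli genes to 25% in Leydig genes. Carriers were above and below B6 in 12 and 3 of 33 spermatid windows (median 0.05), in 13 and 3 of 35 spermatogonial windows (0.07), in 8 and 1 of 25 Sertoli windows (0.05) and in 4 and 3 of 12 Leydig windows (-0.05). Autosomal housekeeping genes had 5 and 1 of 19 windows (0.01) and imprinted genes 22 and 5 of 60 (0.07). Olfactory receptors had 130 and 119 of 575 (-0.00), vomeronasal receptors 102 and 41 of 326 (0.05) and zinc finger genes 156 and 76 of 533 (0.02). In an alternative, all carriers were set over the 1Rb_M input, since 1Rb_P has no input, and B6 over its own input. Over all windows of a list, the median then changed sign for Leydig genes (0.10), vomeronasal receptors (-0.05) and meiotic prophase genes (from 0.01 to -0.02). For olfactory receptors it went from -0.003 to -0.07. It was 0.15 for spermatogonial genes and 0.004 for γH2AX pathway genes, against 0.07 for both over the pool. These values describe γH2AX on the genes, not their expression, and do not measure how many cells of each type the testes held.

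Single windows with large differences outside the fused ends were rare and mostly moved with the inputs. Of 47166 other autosomal windows, 119 (0.252%) had all carriers above B6 with a difference of at least 0.5, and 130 (0.276%) all below. In 80 of the 119 and 100 of the 130 the 1Rb_M input differed from the B6 input by at least 0.3 in the same direction. The share of all 47166 windows with such an input difference is not given here, so these counts have no background beside them. In the first 20 Mb of 8 and 12, 419 of 796 windows differed by at least 0.5, and 29 of the 419 had such an input difference.

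The windows named by size illustrate this. With carriers above B6, Gm40035 on chromosome 2 stood at -0.06 to 0.18 in the carriers and -1.07 in B6, with an input difference of 1.10. P4ha2, a collagen prolyl hydroxylase gene on chromosome 11, stood at -0.13 to 0.11 in the carriers and -1.01 in B6, with an input difference of 1.02. With carriers below B6, 9230019H11Rik on chromosome 10 stood at -1.63 to -0.94 in the carriers and 0.65 in B6, with an input difference of -1.94. Smo, a hedgehog signal transducer that shares its window with Tspan33 on chromosome 6, stood at -0.39 to -0.24 in the carriers and 0.63 in B6, with an input difference of -1.04.

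Of the 20 windows named, 18 had an input difference of at least 0.3 in the same direction. With the carriers of both crosses over the 1Rb_M input and B6 over its own, the difference of 16 of the 20 shrank by 50 percent or more. Of the 20, 5 turned round. The 3 windows whose difference kept most of its size were Hook3 (chromosome 8, 26050001 to 26100000, beyond the stretch above), where carriers stood at 0.23, 0.28, 0.67, 0.50, 0.53 and 0.50 and B6 at -0.39, and the X windows of Zmat1 and of the Rhox4g/Rhox3h cluster. The difference over these inputs was 0.80 at Hook3, -0.62 at Zmat1 and -0.70 at Rhox4g/Rhox3h. Among the 20 genes named in the first 20 Mb of 8 and 12, it ran from -0.01 at Myom2 to 1.27 at Efnb2. That of Insr was 1.15, against 1.19 over the pool.

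**Figure D5:**
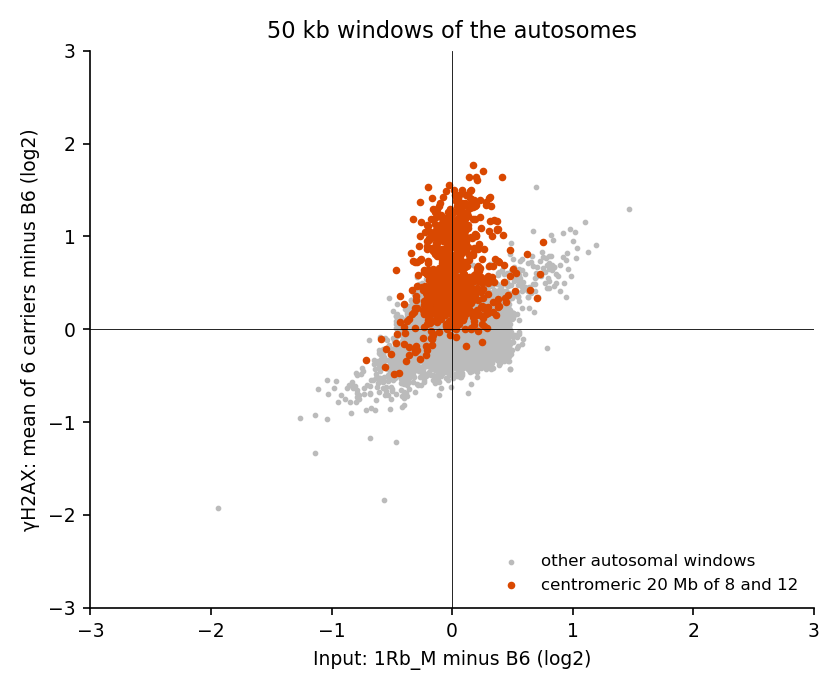
Difference in γH2AX, mean of 6 carriers minus B6 (log2, vertical axis), against the difference between the 1Rb_M and B6 inputs (log2, horizontal axis), 1 point per 50 kb autosomal window. Grey windows with large differences lie along a slope with the input, while the orange windows of the centromeric 20 Mb of 8 and 12 rise to 1.77 with input differences mostly near 0.

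The named 1 Mb bins showed the same division. At 65 and 66 Mb of chromosome 13, all 6 carriers stood at 0.19 to 0.27 and B6 at -0.17 and -0.26, and the 1Rb_M input was at 0.20 in both while the B6 input was at -0.38 and -0.40. At 25 and 26 Mb of chromosome 8 (Fgfr1, a fibroblast growth factor receptor, and Hook3) and at 31 Mb of chromosome 12 (Lamb1, a laminin chain), the carriers exceeded B6 by 0.36, 0.38 and 0.37 with inputs within 0.1 of each other. In the other direction, the end of chromosome 4 at 156 Mb, with Agrn and Isg15, stood at 0.35, 0.14 and 0.57 in 1Rb_M and 0.55, 0.56 and 0.37 in 1Rb_P, against 0.94 in B6, with inputs of -0.05 in 1Rb_M and 0.12 in B6.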

How the data were processed

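γH2AX was measured by ChIP-seq of whole testis in 6 carrier libraries and 1 B6 library, with 3 inputs. The deposited values are raw read counts per 50 kb window made by the authors; CASAVA 1.8, BWA and mm10 are named in the submitters' processing notes. Alignment options, duplicate removal and the treatment of multiply mapping reads are not given in the sources used here. Groups came from the sample titles. Windows with pooled input outside 0.2 to 5 times the median were left out (1503 of 54520, 2.76%), and a 1 Mb bin needed at least 10 of its 20 windows. Window levels had 0.5 added to each count; sums had nothing added. The pooled input is common to all libraries, so it drops out of every difference between carriers and B6. Genes were 21883 protein-coding genes in the RefSeq table of GRCm38.p6, which mm10 is; a window of 50 kb does not resolve promoters from gene bodies. Genes of the 2 fused ends were those of a list nearest to each 2 Mb step; other windows were the 10 per direction with the largest difference and a gene, at most 2 per chromosome, and bins the 5 per direction. A gene that this rule names on chromosome 12 is not reported here. The members, the 17 gene lists and the rules were chosen with earlier results of these data known. No p-value is given. Alternatives were other scalings (library total, TMM from edgeR 4.0.16, median-of-ratios factors, 13 autosomes), inputs, window filters, bin sizes, the median of windows, thinning to the B6 depth, each cross alone and leaving out carriers. Scripts (Python 3.11.15, numpy 2.4.6, pandas 2.3.3) were tested on simulated data. H3.3 and the other γH2AX libraries were not used here.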

Additional observations from a re-analysis of the deposited data

Results flagged for a closer look

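In 7 regions all 1Rb_M libraries lay on one side of B6 and all 1Rb_P libraries on the other. The difference between the crosses was not tested. Regions overlap, so no background share is given for this count. The widest gap was in the centromeric 10 Mb of chromosome 14, where 1Rb_M averaged -0.08 and 1Rb_P -0.20, against -0.17 in B6, a gap of 0.124 (log2). The rest of chromosome 7 averaged -0.07 in 1Rb_M and -0.14 in 1Rb_P, against -0.11 in B6, a gap of 0.0617. Over the other 17 autosomes the gap was 0.0364 in the centromeric 10 Mb and -0.00309 in the rest. In the bands of these 17 autosomes it was 0.0581 from 3 to 8 Mb, 0.0123 from 33 to 43 Mb and -0.00505 beyond 43 Mb. These regions overlap and levels are scaled to the same 17 autosomes, so their gaps are not separate observations. None of these regions lies on 8 or 12.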

How the results depend on the processing

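Under every alternative run, the carrier mean stayed above B6 at the centromeric ends of 8 and 12 (0.83 to 1.04) and below it on X (-0.70 to -0.25) and Y (-0.83 to -0.42). Leaving out 1 carrier at a time gave 0.85 to 0.97 at the ends of 8 and 12, -0.55 to -0.39 on X, -0.69 to -0.54 on Y, 0.09 to 0.10 on the rest of 8 and 12, 697 to 774 bins above, 655 to 762 bins below, runs of 31 to 36 Mb on chromosome 8 and 19 Mb on chromosome 12, and -0.00 to 0.05 for gene-dense less gene-free windows. The run on chromosome 8 was 17 Mb with pooled input between 0.5 and 2 times the median, 18 Mb with median-of-ratios factors, with 500 kb bins and with the median of windows, and 50 Mb with 1Rb_P alone. That on chromosome 12 was 14 Mb with the median of windows, 14.5 Mb with 500 kb bins and 18 Mb with 2 Mb bins. It was 15 Mb with all carriers over the 1Rb_M input and B6 over its own. Scaling by library total, which counts X and Y, gave 1471 bins with carriers above B6, 271 below, and 0.213 on the rest of 8 and 12. 1Rb_P alone gave 1039 bins below B6. With all carriers over the 1Rb_M input and B6 over its own, some named windows turned round. They were Alyref2/Itln1 (-0.287), 9230019H11Rik (0.0183), Tspan33/Smo (0.0759), Gm14496 (0.219) and Pla2g5/Gm13030 (0.0638). The cause of these changes was not tested, other than for this change of inputs, which replaces the denominator. No paired analysis was possible because B6 has 1 library and no group comparison was tested. At its depth, B6 limits single windows to a counting error of about 5.92%.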
